A study of Mus musculus with 18 samples.

Results

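Genes of the chromatin remodelling and histone deacetylase complexes were examined in ageing mice, in thymocytes, which are T cells still developing in the thymus. The members were all non-control probes whose gene name on the array begins with Smarc, Chd and a digit, Baz and 1 or 2, Arid and 1 to 5, or Hdac and a digit, or is Mta1, Mta2 or Mta3. This rule took 38 of 41174 non-control probes and used no measured value, but it was chosen with earlier results of these data known. The 38 probes stand for 29 of the 38354 gene names on the array, and of these 29 genes 9 had 2 probes and 20 had 1. All 38 matched a current RefSeq symbol, and the genes that the array calls Smarca3 and Hdac7a are given here as Hltf and Hdac7. For a gene with 2 probes, the brighter one over both dyes and all arrays stands for the gene, and the other is called its dimmer probe.

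Cells came from thymi of C57BL/6 mice aged 6, 16 and 24 months, with 3 mice at each age, and from C57BL/6 mice aged 1 month. The thymi had been dissociated, strained to remove connective tissue, washed free of fat cells and cleared of red cells by lysis. No gene was altered and no agent was given to any group. On each of 9 arrays, RNA of 1 older mouse was labelled with Cy3 and 1 month RNA with Cy5. The series design calls the 1 month RNA pooled, while the sample titles number 9 samples of it and do not name mice. No control sample was hybridised against the 1 month RNA, so it was counted as 1 control sample and its own spread was left out. The dyes were never swapped, so age against 1 month cannot be told apart from Cy3 against Cy5.

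Chromatin remodellers are ATP-driven machines that slide, eject or exchange nucleosomes. The SWI/SNF complexes open chromatin at enhancers and promoters, the ISWI complexes space nucleosomes, and the NuRD complex joins a CHD-family ATPase to histone deacetylases through MTA subunits. Histone deacetylases remove acetyl groups from histone tails and usually act in corepressor complexes. In the thymus, SWI/SNF, NuRD and the class I deacetylases are required for thymocytes to pass the early checkpoints and to choose between the CD4 and CD8 lineages.

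Values are log2 ratios of the background-subtracted, dye-normalized signal of the older mouse over that of 1 month cells on the same array, so a positive value means higher in the older mouse. The share of probes that stood clear of background ranged from 79.6% to 94.2% for Cy3 and from 90.5% to 95.4% for Cy5. Of the 38 member probes, 35 were well above background in both dyes on all 9 arrays, and 0 were saturated. All 38 were among the 37449 tested probes. The 16 tested thymocyte markers of 18 listed were all well above background on every array, with a mean log2 ratio between 0.20 and 0.47. Haemoglobin probes, which mark red cells, separated the arrays. Their mean log2 ratio was -1.93, -1.85 and -1.16 at 6 months, 1.78, 1.18 and -0.71 at 16 months, and -1.79, 0.34 and 1.27 at 24 months. Thymic epithelium markers ran lower than in 1 month cells at 6 months (mean log2 ratio -0.95 to -0.82) and 16 months (-0.75 to -0.59), and lay between -0.67 and 0.02 at 24 months. Markers of other cells also varied between arrays, and a difference of these lists by age was not tested. The range of their mean log2 ratio over arrays at 6, 16 and 24 months was 0.168 to 0.239, 0.442 to 1.137 and 0.353 to 0.728 for 11 tested NK and cytotoxic cell markers. It was -0.077 to 0.113, 0.286 to 0.759 and 0.109 to 0.529 for 12 B and plasma cell markers. For 13 macrophage and dendritic cell markers it was -0.167 to -0.044, 0.295 to 0.464 and -0.249 to 0.854. Stroma and fat markers (8 tested) reached 0.965 on 24 month replicate 1, and granulocyte markers (9 tested) reached 1.586 on 16 month replicate 2 and were below 0 on the other 8 arrays. The part of these cells in the member values was not tested, apart from the haemoglobin fits. In whole suspensions of cells, fewer cells of a type and less RNA per cell cannot be told apart.

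Relative to 1 month, 32, 31 and 30 of the 38 member probes were above 0 at 6, 16 and 24 months. Among called genes, by the brighter probe alone, Baz2a was 2.51-fold higher at 6 months, and Chd4 was 2.47-fold higher at 16 months and 2.08-fold higher at 24 months. Their dimmer probes were not called, with log2 ratios of 0.16 for Baz2a at 6 months and 0.42 and 0.51 for Chd4 at 16 and 24 months. The Baz2a call was lost when any 6 month array was left out. In limma's moderated test, with Benjamini-Hochberg adjustment over all 37449 probes at 0.05, 11 member probes passed at 6 months, 11 higher and 0 lower. Of all tested probes 12.4% passed in that comparison, 7.61% as higher and 4.76% as lower. At 16 months 13 member probes passed, 13 higher and 0 lower, against 18.0% of all probes, or 11.4% as higher and 6.59% as lower. At 24 months 15 passed, 13 higher and 2 lower, against 24.9% of all probes, or 11.6% as higher and 13.3% as lower. The median member probe lay at 0.24, 0.25 and 0.20 at 6, 16 and 24 months, and the median over all tested probes at -0.01, -0.01 and -0.02. Counted by gene, 10, 11 and 11 genes were higher at 6, 16 and 24 months, and 1 was lower at 24 months.

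These directions depend on the correction of dye bias by signal strength. Without it, when background-corrected signals were only centred on each array's median, 12 member probes passed as higher and 1 as lower at 6 months, 9 and 2 at 16 months, and 12 and 8 at 24 months. Of all tested probes 51.6%, 43.2% and 70.6% passed then. The member median was then 0.11, 0.11 and -0.01. Of the member probes called with the correction, 3 of 11, 4 of 13 and 9 of 15 had the opposite sign without it. The share of turned signs among all called probes was not counted, so this is not shown to be particular to the members. A called probe whose sign turns is marked as such beside its values. Probes that were not called do not carry this mark, although some of their signs turned too. With a different correction of background followed by loess, no called member turned its sign and 14, 13 and 12 member probes passed, against 16.6%, 24.4% and 21.5% of all probes. The calls also rest on single arrays, and the share of all probes called fell as well. The 11 calls at 6 months became 3 without 6 month replicate 1 (4.45% of all probes) and 0 without replicate 2 (0.756%). They became 6 without 16 month replicate 2 (9.14%) and 7 without 24 month replicate 1 (9.02%). The 13 calls at 16 months became 2 without 16 month replicate 2 (3.31%) and 5 without replicate 3 (9.19%). The 15 calls at 24 months became 4 without either 24 month replicate 1 (9.36%) or replicate 2 (10.9%). Fitted on the 3 arrays of each age alone, the calls became 4, 5 and 0 at 6, 16 and 24 months, against 3.02%, 9.44% and 0% of all probes. Without the 3 arrays with a haemoglobin log2 ratio above 1, 1 array was left at 16 months, where the member median was 0.24.

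**Figure D1:**
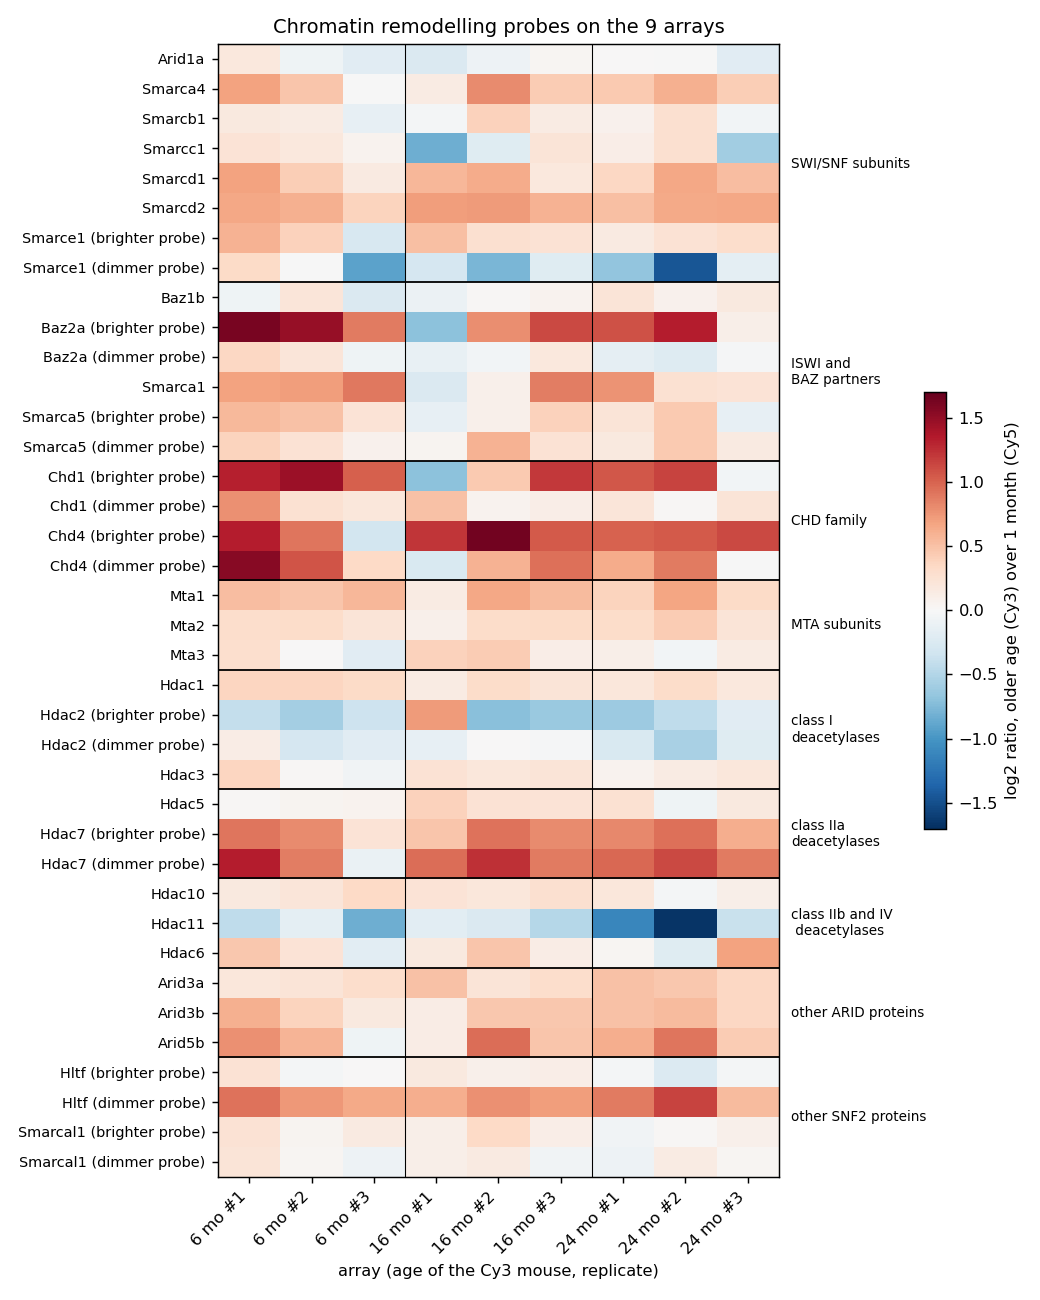
Log2 ratio of the older mouse (Cy3) over 1 month cells (Cy5) for the 38 member probes (rows, grouped by role) on the 9 arrays (columns, by age and replicate), red for higher and blue for lower in the older mouse. Smarcd2 and the dimmer Hltf probe are red on all 9 arrays, whereas the brighter Baz2a and Chd1 probes are blue or near white on 16 month replicate 1 and 24 month replicate 3. For Smarcd2 at 24 months the sign turns without the dye correction (-0.23).

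Among the SWI/SNF subunits, Smarcd2, an accessory subunit that is known for its part in granulocyte development, differed from 1 month at all 3 ages. Its log2 ratios were 0.65, 0.61 and 0.38 at 6 months, 0.70, 0.73 and 0.59 at 16 months, and 0.51, 0.65 and 0.66 at 24 months. All 9 arrays were above 0 and the ages overlapped. The mean rose by 0.55 (SE 0.07, adjusted p = 0.00578, limma) at 6 months, 0.67 (SE 0.07, adjusted p = 0.00184) at 16 months and 0.61 (SE 0.07, adjusted p = 0.00251) at 24 months, and was 0.03, 0.16 and -0.23 without the dye correction. Its paralogue Smarcd1 rose at 16 months (0.46, SE 0.12, adjusted p = 0.0352) and 24 months (0.51, SE 0.12, adjusted p = 0.0214), and had 0.42 with adjusted p = 0.0568 at 6 months. The Smarcd1 probe is dim, and its Cy3 signal stood clear of background on 2 of 3 arrays at 6 months, 3 at 16 months and 2 at 24 months. With normexp and loess Smarcd1 was at 0.11 at 16 months and 0.06 at 24 months, neither of them called.

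Smarca4, the catalytic ATPase, had log2 ratios of 0.68, 0.47 and -0.01 at 6 months, 0.14, 0.81 and 0.43 at 16 months, and 0.44, 0.61 and 0.41 at 24 months. The 24 month arrays were the closest together, but the model shares 1 spread over all ages, so this did not narrow the SE. Smarca4 passed at 24 months alone (0.49, SE 0.15, adjusted p = 0.048, limma), with -0.35 without the dye correction. Its 16 month mean was close to that (0.46, SE 0.15, adjusted p = 0.0698). Whether 24 months differed from the other ages is given with the age contrasts. The core subunit Smarcb1 lay between -0.14 and 0.39 and the DNA-binding subunit Arid1a between -0.24 and 0.17 over the 9 arrays, and neither passed at any age. Over 20 alternatives the 24 month mean of Smarcb1 ran from -0.67 to 0.17. The 2 Smarce1 probes went opposite ways. The brighter one averaged 0.24, 0.34 and 0.24 at 6, 16 and 24 months, and the dimmer one -0.20, -0.42 and -0.76, with none of the 6 values called. The dimmer probe was well above background in Cy3 on 7 of 9 arrays. Its sign was not stable. Over 19 alternatives its mean ran from -0.46 to 0.53, -0.53 to 0.47 and -1.06 to 0.61 at 6, 16 and 24 months.

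The scaffold subunit Smarcc1 was called at no age. It had 0.23, 0.18 and 0.06 at 6 months, -0.83, -0.21 and 0.23 at 16 months, and 0.12, 0.28 and -0.59 at 24 months. The low arrays were 16 month replicate 1, 24 month replicate 3 and, less so, 16 month replicate 2, which are the 3 arrays with a haemoglobin log2 ratio above 1.

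Among the ISWI genes, Baz2a, the partner with which Smarca5 silences ribosomal DNA, varied most of all members. Its brighter probe (A_51_P273052) had log2 ratios of 1.62, 1.49 and 0.88 at 6 months, -0.70, 0.79 and 1.12 at 16 months, and 1.09, 1.33 and 0.11 at 24 months. All 3 arrays at 6 months were high, and at the later ages 1 array each stood near or below 0. The range over the 9 arrays was 2.32, and 1.67% of all tested probes had a wider one. Baz2a rose at 6 months (1.33, SE 0.36, adjusted p = 0.0497), a call lost when any of the 3 arrays at that age was left out, with adjusted p between 0.0196 and 0.438 over 20 alternatives. Its means of 0.40 (SE 0.36, adjusted p = 0.461) at 16 months and 0.84 (SE 0.36, adjusted p = 0.119) at 24 months did not pass. The dimmer Baz2a probe stayed between -0.22 and 0.36 on all 9 arrays, averaged 0.16, 0.00 and -0.13 at 6, 16 and 24 months, and was called at no age. Over 20 alternatives its 24 month mean ran from -0.19 to 0.55. In the 1 month channel the brighter probe varied little (SD 0.12 over 9 arrays on the log2 scale), against 0.77 in the Cy3 channel. Most member probes likewise varied less in the 1 month channel.

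Smarca1, an ISWI ATPase, rose at 6 months (0.77, SE 0.19, adjusted p = 0.0407). Its arrays were 0.69, 0.71 and 0.90 at 6 months, -0.24, 0.08 and 0.87 at 16 months, and 0.76, 0.26 and 0.23 at 24 months. The 6 month arrays lay together, and 16 month replicate 1 was again the lowest. Smarca5, the other ISWI ATPase, passed at no age with either probe. Its brighter probe averaged 0.43, 0.11 and 0.17 at 6, 16 and 24 months and its dimmer probe 0.23, 0.29 and 0.26. Baz1b, a further ISWI partner, averaged -0.04, -0.00 and 0.15 and did not pass.

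The CHD family was represented by Chd1 and Chd4. Chd1, a remodeller with chromodomains that is found on transcribed genes, had 1.32, 1.46 and 1.02 at 6 months, -0.70, 0.45 and 1.20 at 16 months, and 1.05, 1.14 and -0.05 at 24 months with its brighter probe (A_52_P547965). The order of the arrays resembled that of Baz2a, with 16 month replicate 1 lowest and 24 month replicate 3 next. The mean at 6 months was 1.26 (SE 0.35, adjusted p = 0.0516), just short of the threshold, and it passed with normexp and loess (1.05, adjusted p = 0.0293). At 16 and 24 months it was 0.32 (SE 0.35, adjusted p = 0.551) and 0.72 (SE 0.35, adjusted p = 0.16). The dimmer Chd1 probe ranged from 0.02 to 0.78, averaged 0.41, 0.23 and 0.15 at 6, 16 and 24 months and passed at no age.

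Chd4, the ATPase of NuRD, had 1.34, 0.91 and -0.31 at 6 months, 1.22, 1.64 and 1.05 at 16 months, and 1.01, 1.05 and 1.12 at 24 months with its brighter probe. Only 6 month replicate 3 was below 0. The mean was 0.64 (SE 0.27, adjusted p = 0.146) at 6 months, and rose by 1.30 (SE 0.27, adjusted p = 0.0162) at 16 months and by 1.06 (SE 0.27, adjusted p = 0.0268) at 24 months. Its sign held with and without the dye correction (0.91 and 0.83 without it), although with normexp and loess the 24 month value was 0.53 with adjusted p = 0.0538. The dimmer Chd4 probe placed the arrays differently, with 1.54, 1.06 and 0.34 at 6 months, -0.26, 0.59 and 0.94 at 16 months, and 0.64, 0.88 and -0.00 at 24 months. It was above 0 on every 6 month array and passed at no age (0.98, adjusted p = 0.0602 at 6 months).

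The MTA subunits link the NuRD ATPase to the deacetylases. Mta1 had 0.52, 0.48 and 0.56 at 6 months, 0.14, 0.66 and 0.54 at 16 months, and 0.38, 0.67 and 0.32 at 24 months, above 0 on all 9 arrays. It rose by 0.52 (SE 0.10, adjusted p = 0.0213), 0.45 (SE 0.10, adjusted p = 0.0239) and 0.46 (SE 0.10, adjusted p = 0.0194) at 6, 16 and 24 months, but was at 0.03, 0.00 and -0.28 without the dye correction. Mta2 was smaller and likewise above 0 on all arrays, between 0.09 and 0.43. It rose by 0.28, 0.24 and 0.32 at 6, 16 and 24 months (adjusted p = 0.0312, 0.037 and 0.0126), and turned to -0.23, -0.25 and -0.49 without that correction. The 24 month value of Mta2 then passed as lower (adjusted p = 0.0138, limma). Mta3 averaged 0.03, 0.31 and 0.07 and did not pass.

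Among the class I deacetylases, Hdac1, a catalytic subunit of NuRD and Sin3 complexes, was above 0 on every array. Its log2 ratios were 0.36, 0.37 and 0.32 at 6 months, 0.14, 0.32 and 0.21 at 16 months, and 0.19, 0.32 and 0.18 at 24 months. It rose by 0.35 (SE 0.05, adjusted p = 0.00878), 0.22 (SE 0.05, adjusted p = 0.0235) and 0.23 (SE 0.05, adjusted p = 0.0181), and turned to -0.18, -0.28 and -0.60 without the dye correction. The 24 month value of Hdac1 then passed as lower (adjusted p = 0.00605, limma). Its paralogue Hdac2 averaged -0.45, -0.21 and -0.42 at 6, 16 and 24 months with the brighter probe, which passed at no age. That probe was at 0.72 on 16 month replicate 1 and between -0.71 and -0.19 on the other 8 arrays. The dimmer Hdac2 probe fell by 0.34 at 24 months (SE 0.09, adjusted p = 0.0339), but passed as higher without the dye correction (0.20, adjusted p = 0.0463). Hdac3, the deacetylase of the nuclear receptor corepressors, averaged 0.11, 0.22 and 0.14 and did not pass.

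Of the class IIa deacetylases, Hdac7, a repressor that is abundant in CD4+ CD8+ thymocytes and leaves the nucleus on T cell receptor signalling, was above 0 on all 9 arrays. Its brighter probe had 0.91, 0.80 and 0.24 at 6 months, 0.47, 0.93 and 0.81 at 16 months, and 0.81, 0.93 and 0.62 at 24 months. It rose by 0.65 (SE 0.14, adjusted p = 0.0258), 0.74 (SE 0.14, adjusted p = 0.0119) and 0.79 (SE 0.14, adjusted p = 0.00841), with 0.12, 0.24 and -0.06 without the dye correction. The dimmer Hdac7 probe rose by 1.02 (adjusted p = 0.0212) at 16 months and 1.00 (adjusted p = 0.0197) at 24 months, where it passed under each of the 4 other scalings tried. At 6 months it averaged 0.70, with 6 month replicate 3 at -0.11. Hdac5 rose at 16 months (0.29, SE 0.07, adjusted p = 0.0252), with -0.08 without the dye correction, and averaged 0.04 and 0.11 at 6 and 24 months.

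In classes IIb and IV, Hdac10 rose at 6 months (0.24, SE 0.06, adjusted p = 0.0344) and 16 months (0.23, SE 0.06, adjusted p = 0.0283), with -0.09 and -0.08 without the dye correction, and averaged 0.09 at 24 months. Hdac6, best known as a tubulin deacetylase, averaged 0.17, 0.26 and 0.17 and did not pass. Hdac11, the class IV enzyme, was below 0 on every array, the lone member probe to be so, as were 13.6% of all tested probes. It had -0.43, -0.16 and -0.84 at 6 months, -0.18, -0.24 and -0.48 at 16 months, and -1.11, -1.66 and -0.38 at 24 months. It fell by 1.05 at 24 months (SE 0.22, adjusted p = 0.0149), but stood at 0.52 with adjusted p = 0.0111 without the dye correction. The probe was well above background in Cy3 on 1 of 3 arrays at 24 months, 2 at 6 months and 3 at 16 months.

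The other ARID proteins are DNA-binding regulators outside SWI/SNF. Arid3a, first described as a B cell factor, had 0.19, 0.23 and 0.30 at 6 months, 0.50, 0.22 and 0.30 at 16 months, and 0.50, 0.46 and 0.35 at 24 months. All 9 arrays were above 0. It rose by 0.24 (SE 0.06, adjusted p = 0.0461), 0.34 (SE 0.06, adjusted p = 0.0116) and 0.44 (SE 0.06, adjusted p = 0.00497) at 6, 16 and 24 months, and kept its sign without the dye correction (0.05, 0.10 and 0.11), where it was not called. Arid3b rose by 0.39, 0.35 and 0.46 (adjusted p = 0.0389, 0.0418 and 0.0145), with 0.18, 0.13 and 0.11 without the correction. Arid5b rose at 24 months (0.65, SE 0.19, adjusted p = 0.043), with -0.16 without it, and ranged from -0.07 on 6 month replicate 3 to 0.95 on 16 month replicate 2.

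The remaining SNF2 proteins act at replication forks. The dimmer Hltf probe had 0.93, 0.74 and 0.65 at 6 months, 0.61, 0.78 and 0.71 at 16 months, and 0.88, 1.15 and 0.54 at 24 months. It rose by 0.77 (SE 0.11, adjusted p = 0.00773), 0.70 (SE 0.11, adjusted p = 0.00615) and 0.85 (SE 0.11, adjusted p = 0.00345), and passed as higher under each of the 4 other scalings at every age. The brighter Hltf probe was at 0.07, 0.12 and -0.10 (adjusted p 0.235 to 0.513), so the probes of Hltf disagreed and no direction is given for the gene. Smarcal1, a DNA-annealing helicase, lay between -0.09 and 0.34 over both of its probes and did not pass.

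**Figure D2:**
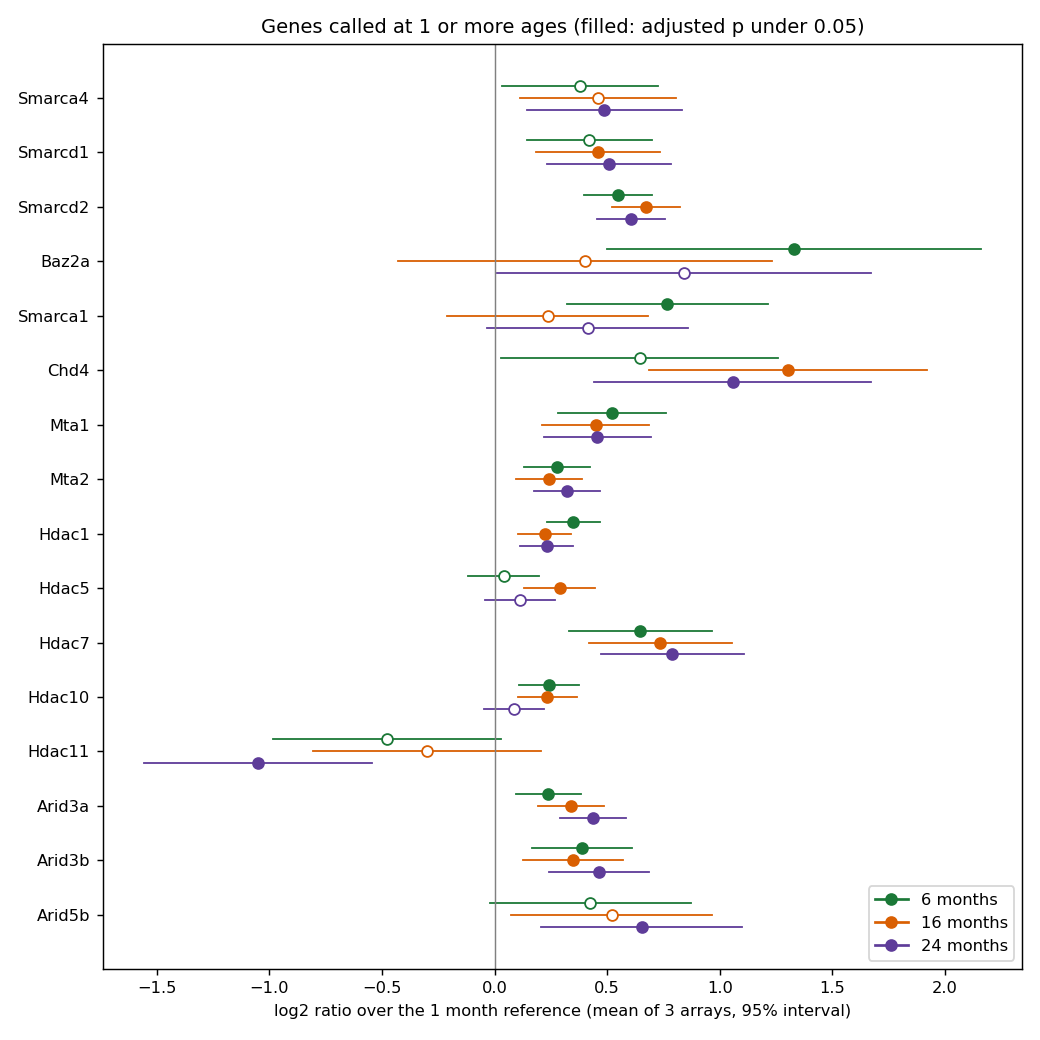
Mean log2 ratio over the 1 month reference with its 95% interval (limma, 3 arrays an age) for the 16 genes whose brighter probe was called at 1 or more ages, with 6, 16 and 24 months from top to bottom in each row and filled points for adjusted p under 0.05. Smarcd2 lies at 0.55, 0.67 and 0.61 with narrow intervals and Baz2a at 1.33, 0.40 and 0.84 with wide ones, and 24 month Hdac11 (-1.05) is the lone filled point below 0. Without the dye correction the sign turned for 9 of the 15 probes called at 24 months, among them Hdac11 (0.52) and Smarcd2 (-0.23).

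The promoters of 4 genes are shown because these genes carry the contrast just described: Baz2a and Smarcc1 swung between arrays of 1 age, while Smarcd2 and Mta1 were above 0 on all 9. Each sequence runs 5′ to 3′ from 250 bases before to 50 bases after the RefSeq start in GRCm38.p6, on the strand of the gene. Capitals mark exact matches, on either strand, to 7 motifs that are spelled out after the sequences, and no matches overlapped. Of the 29 genes 22 were in the promoter table.
Baz2a, chr10:128092533-128092832, plus strand: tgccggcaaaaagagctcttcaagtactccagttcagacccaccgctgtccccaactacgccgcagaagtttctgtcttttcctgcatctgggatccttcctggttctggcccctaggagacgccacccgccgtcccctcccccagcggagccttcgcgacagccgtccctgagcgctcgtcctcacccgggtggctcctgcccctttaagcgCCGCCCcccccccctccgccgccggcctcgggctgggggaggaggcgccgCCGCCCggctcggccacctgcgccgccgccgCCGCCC
Smarcc1, chr9:110131774-110132073, plus strand: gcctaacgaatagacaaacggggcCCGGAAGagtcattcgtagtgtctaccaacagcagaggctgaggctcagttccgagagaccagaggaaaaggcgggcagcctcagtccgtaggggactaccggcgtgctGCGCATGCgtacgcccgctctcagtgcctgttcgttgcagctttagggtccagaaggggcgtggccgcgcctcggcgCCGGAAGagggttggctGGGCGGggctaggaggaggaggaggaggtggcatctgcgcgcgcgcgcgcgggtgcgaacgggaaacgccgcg
Smarcd2, chr11:106267583-106267882, minus strand: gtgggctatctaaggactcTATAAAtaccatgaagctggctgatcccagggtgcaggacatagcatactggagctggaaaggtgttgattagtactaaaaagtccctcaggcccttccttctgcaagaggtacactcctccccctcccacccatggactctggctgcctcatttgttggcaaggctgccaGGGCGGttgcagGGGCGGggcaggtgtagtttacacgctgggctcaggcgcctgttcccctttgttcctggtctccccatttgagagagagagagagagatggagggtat
Mta1, chr12:113098028-113098327, plus strand: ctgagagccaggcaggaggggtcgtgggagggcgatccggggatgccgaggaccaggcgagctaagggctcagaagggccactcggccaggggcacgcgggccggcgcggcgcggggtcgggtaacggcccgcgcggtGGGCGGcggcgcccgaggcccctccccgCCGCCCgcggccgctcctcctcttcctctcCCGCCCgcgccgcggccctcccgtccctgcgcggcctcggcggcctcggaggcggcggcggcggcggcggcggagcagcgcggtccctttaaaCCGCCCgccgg
The Baz2a window held 30 CpG dinucleotides and 3 GC boxes, and that of Smarcc1 33 CpG, 2 ETS cores, 1 NRF1 site and 1 GC box. The Mta1 window held 50 CpG and 4 GC boxes. The Smarcd2 window held 4 CpG, 2 GC boxes and 1 TATA box. The median over all 32851 promoters in the table was 7 CpG. The GC box, searched as GGGCGG, was present in 35.7% of these promoters. The ETS core, searched as CCGGAAG, was present in 8.86% of them. The NRF1 site, searched as GCATGCGC, was found in 2.71% of them. The CCAAT box, searched by those letters, was found in 37.4% of them. The TATA box, searched as TATAAA, was found in 13.6% of them. The E-box, searched as CACGTG, stood in 7.15% of the promoters. The YY1 site, searched as AAGATGGC, stood in 2.75% of the promoters. A match describes letters and is not evidence of binding.

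The brighter Chd1 probe, like that of Baz2a and like most member probes, varied less in the 1 month channel (SD 0.18 over 9 arrays) than in the Cy3 channel (SD 0.77). The median range over the 9 arrays was 0.62 for member probes and 0.54 for all tested probes, and 8 members exceeded 1.37, the 90th percentile of all probes. A slope on the haemoglobin log2 ratio was fitted with limma beside a mean for each age. It had an unadjusted p under 0.05 for 4 member probes, those of Smarca1 (slope -0.27, SE 0.07), Chd1 (-0.45, SE 0.14), Smarcc1 (-0.26, SE 0.09) and Baz2a (-0.41, SE 0.16). After adjustment over all probes, 0 of 38 member slopes passed (smallest adjusted p = 0.415, limma), while 8 of 37449 probes, or 0.0214%, did and 7.34% had an unadjusted p under 0.05. This slope was chosen for testing after the array values had been seen. The 7 tested erythroid markers of 13 listed made up 0.00503% to 0.00819% of the summed Cy3 signal at 6 months, 0.0109% to 0.104% at 16 months and 0.00639% to 0.05% at 24 months, and all 7 were well above background on every array.

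With haemoglobin as a covariate, 0 member probes passed at 6 months, 10 at 16 months and 14 at 24 months, against 0.0454%, 13.1% and 23.0% of all tested probes. This fit places each age at a haemoglobin log2 ratio of 0. All 6 month arrays lay below that, between -1.93 and -1.16, so the 6 month values are extrapolated. The lost calls at 6 months are therefore not a plain adjustment for red cells. Baz2a at 6 months was then 0.65 (adjusted p = 0.438) and Chd1 0.52 (adjusted p = 0.452). Smarcd2 and Mta1, for comparison, had slopes of 0.04 (SE 0.04) and -0.03 (SE 0.06).

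**Figure D3:**
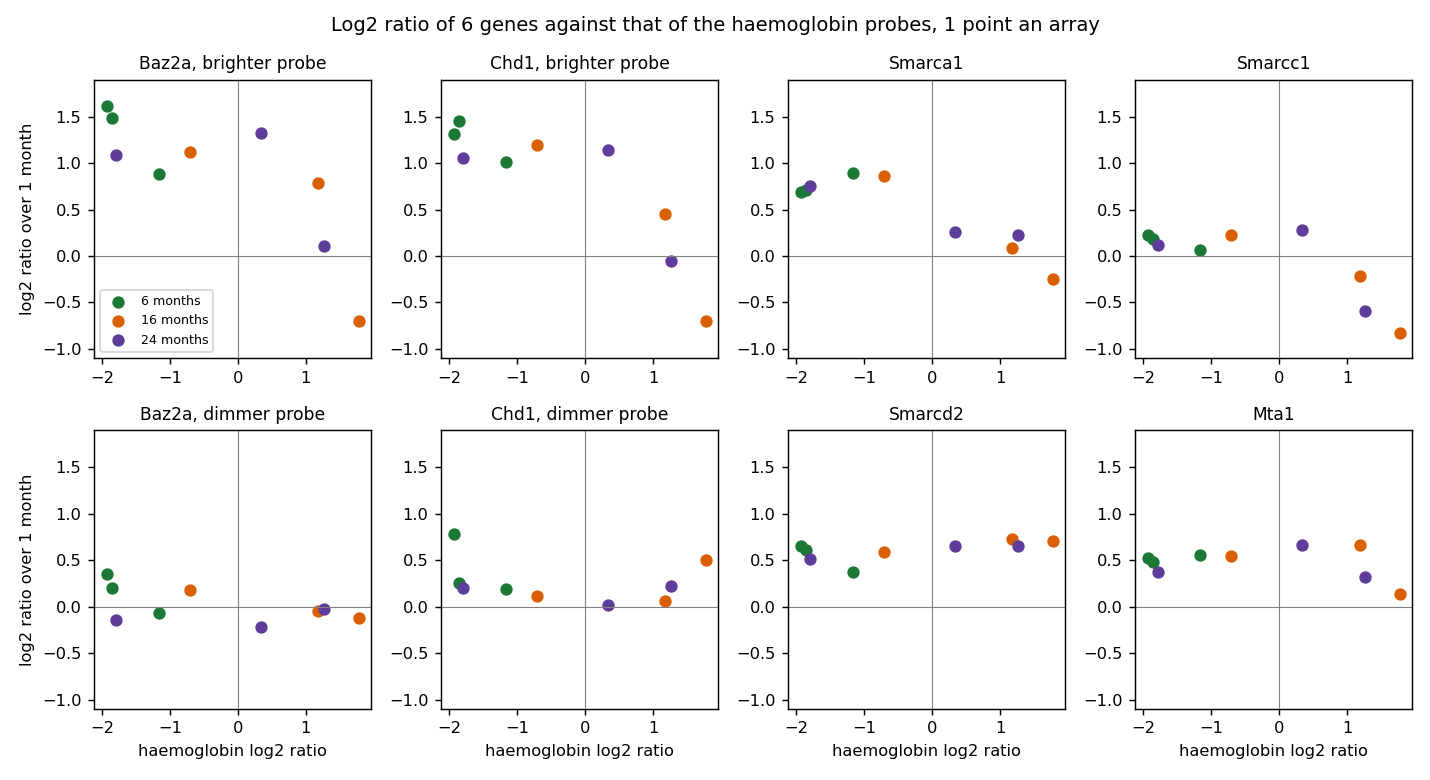
Log2 ratio over 1 month of 8 probes (vertical axes) against the mean log2 ratio of the 4 haemoglobin probes (horizontal axes), 1 point an array, coloured by age. The brighter Baz2a probe is lowest (-0.70) on the array with the highest haemoglobin (1.78), while the Smarcd2 points stay between 0.38 and 0.73 across the haemoglobin range. The haemoglobin slopes did not pass after adjustment.

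Between the older ages no member differed after adjustment. At 24 against 6 months, 0 of 38 member probes passed, and 0% of the 37449 tested probes (limma). At an unadjusted p under 0.05 there were 0 members, with 9.11% of all probes. At 16 against 6 months 0 members passed (0% of all probes), and 1 had an unadjusted p under 0.05 (6.38% of all probes). At 24 against 16 months 0 members passed (0% of all probes), and 2 had an unadjusted p under 0.05 (4.77% of all probes). A test of any difference among the 3 ages called 0 members and 0% of all probes, with 0 members at an unadjusted p under 0.05 (6.64% of all probes). Other settings also called 0 members in every age contrast, and at most 1 probe of the whole table.

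The dimmer Baz2a probe had the smallest p of all member probes at 24 against 6 months (difference -0.29, adjusted p = 0.552). Among the brighter probes the smallest p belonged to Arid3a, Hdac10 and Hdac11. Arid3a had 0.50, 0.46 and 0.35 at 24 months, against 0.19, 0.23 and 0.30 at 6 months. The arrays of these ages did not overlap, and the difference was 0.20 (95% interval -0.01 to 0.40, adjusted p = 0.559). Hdac10 had 0.19, -0.03 and 0.09 at 24 months, against 0.17, 0.21 and 0.34 at 6 months, a difference of -0.16 (95% interval -0.34 to 0.03, adjusted p = 0.592) with overlapping arrays. Hdac11 differed by -0.57 (95% interval -1.29 to 0.14, adjusted p = 0.609), and by 0.15 without the dye correction. Non-overlapping arrays were seen for 2 member probes in this contrast, Arid3a and Hdac1, against 15.7% of all probes.

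Baz2a differed by -0.49 (95% interval -1.66 to 0.69, adjusted p = 0.782) and Chd1 by -0.55 (95% interval -1.68 to 0.58, adjusted p = 0.746) at 24 against 6 months, and both differences turned positive with haemoglobin as a covariate (0.17 each). The interval half-width of the median member was 0.35 on the log2 scale and ranged from 0.17 to 1.17, before any adjustment for the number of probes. In simulated data for 24 against 6 months, 28% of probes changed by 0.5 on the log2 scale were recovered, 60% of those changed by 1 and 90% of those changed by 2. There 50 of 36916 probes were changed at each size, with noise independent between probes. Swings shared by many probes of an array were not simulated, so recovery in the real arrays may differ.

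At 16 against 6 months the 3 smallest p were those of Hdac5, Mta3 and Smarca1. Hdac5 had 0.39, 0.24 and 0.23 at 16 months, against 0.02, 0.05 and 0.05 at 6 months, without overlap (difference 0.25, 95% interval 0.03 to 0.47, adjusted p = 0.769). Mta3 differed by 0.28 and Smarca1 by -0.53 (adjusted p = 0.769 for both), with overlapping arrays, and Smarca1 turned to 0.11 with haemoglobin as a covariate. Baz2a differed by -0.93 (adjusted p = 0.77) and Chd1 by -0.95 (adjusted p = 0.769). Arrays did not overlap for 2 member probes, Hdac5 and Hdac1, against 13.8% of all probes.

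At 24 against 16 months, Hdac11 had a difference of -0.75 (95% interval -1.46 to -0.03, adjusted p = 0.862) and turned to 0.23 without the dye correction. The brighter Hltf probe differed by -0.22 and Smarcal1 by -0.17 (adjusted p = 0.862 for both). Baz2a differed by 0.44 (adjusted p = 0.88) and Chd1 by 0.40 (adjusted p = 0.882), and both turned to -0.11 without 16 month replicate 1. Of the members 5 probes did not overlap, against 10.5% of all probes.

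**Figure D4:**
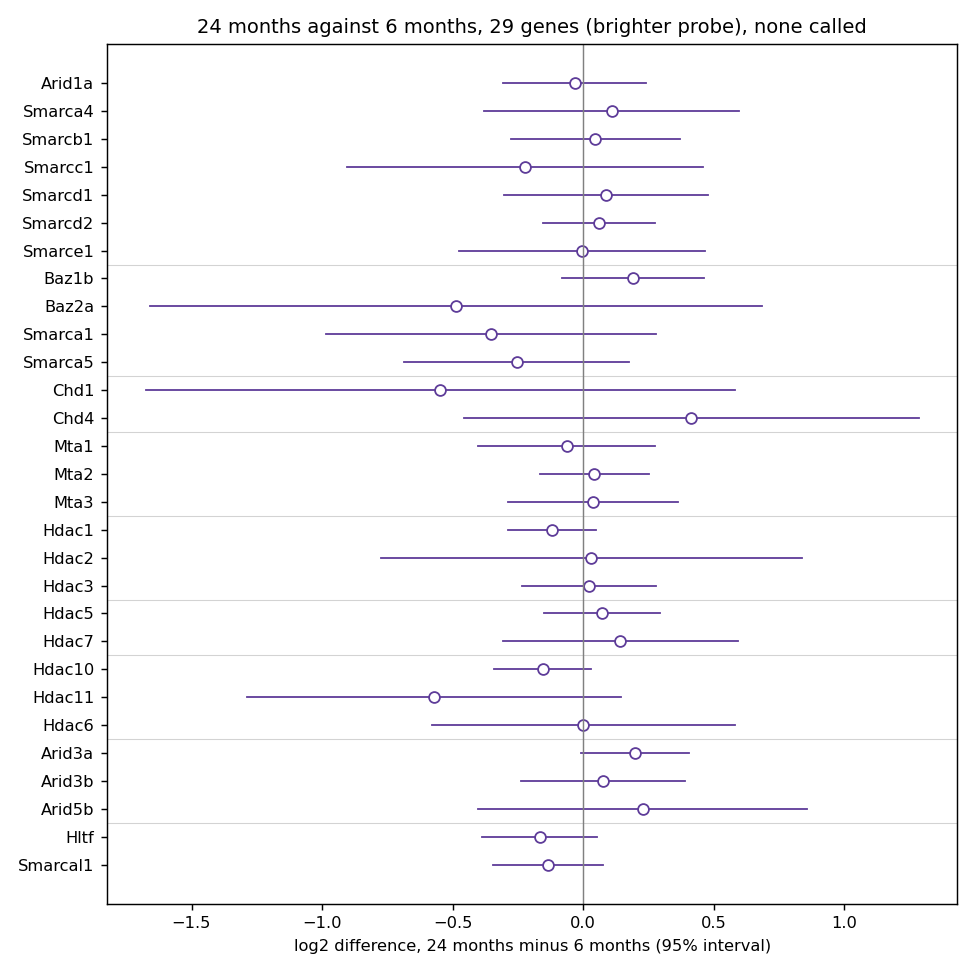
Log2 difference of 24 months minus 6 months with its 95% interval (limma, 3 arrays an age) for the 29 genes by their brighter probe, in the order of their roles, open because none was called. The intervals of Baz2a (-1.66 to 0.69) and Chd1 (-1.68 to 0.58) are wide and that of Hdac1 (-0.29 to 0.05) is narrow. Hdac11 (-0.57) turned to 0.15 without the dye correction.

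Partner genes outside the member rule gave mixed counts against 1 month and none passed between ages. Beside the counts of each list below, 7.61%, 11.4% and 11.6% of all tested probes passed as higher at 6, 16 and 24 months. As lower, 4.76%, 6.59% and 13.3% passed. The lists are small, and no test of a list was run. Of 10 tested BAF and PBAF subunits of 18 listed, 3, 4 and 3 were higher at 6, 16 and 24 months and 1, 0 and 0 lower, with medians of 0.07, 0.08 and 0.03. Bcl11b, a T lineage factor that also joins SWI/SNF, had 1.58, 1.29 and 0.33 at 6 months, 0.45, 1.23 and 1.05 at 16 months, and 1.03, 1.23 and 0.53 at 24 months. It was above 0 on all 9 arrays and rose by 1.07 (adjusted p = 0.0332), 0.91 (adjusted p = 0.0414) and 0.93 (adjusted p = 0.0323), keeping its sign without the dye correction (0.55, 0.43 and 0.14). Bcl7c rose by 0.71, 0.73 and 0.81 (adjusted p = 0.0267, 0.018 and 0.011) and kept its sign too. Dpf2, a histone-reading subunit, rose by 0.25, 0.22 and 0.20 (adjusted p = 0.0286, 0.031 and 0.0377), and turned to -0.21, -0.21 and -0.51 without it. The 24 month value of Dpf2 then passed as lower (adjusted p = 0.0112, limma).

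Of 5 tested NuRD partners of 8 listed, 0, 1 and 0 were higher at 6, 16 and 24 months and 0 lower at each age, with medians of 0.08, 0.28 and 0.17. The one called was Cdk2ap2 at 16 months (0.32, adjusted p = 0.0187), with -0.16 without the dye correction. Of 5 tested ISWI partners of 7 listed, Rsf1, which pairs with Smarca5, rose by 0.36, 0.39 and 0.36 at 6, 16 and 24 months (adjusted p = 0.0245, 0.0123 and 0.0147), also without the dye correction. Pole3, a histone-fold subunit shared with a DNA polymerase, fell by 0.45 at 24 months (adjusted p = 0.0385). The list medians were 0.07, 0.08 and -0.11.

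Of 16 tested INO80, SRCAP and p400 subunits of 28 listed, 3, 5 and 2 were higher at 6, 16 and 24 months and 2, 4 and 5 lower, with medians of 0.12, 0.15 and 0.07. Brd8, a bromodomain subunit of the p400 complex, rose by 0.48, 0.73 and 0.40 (adjusted p = 0.0161, 0.00296 and 0.017). Actr6, an actin-related SRCAP subunit, had -0.38, -0.30 and -0.05 at 6 months, -0.58, -0.61 and -0.53 at 16 months, and -0.72, -0.82 and -0.51 at 24 months. It fell by 0.57 (adjusted p = 0.00453) at 16 months and 0.68 (adjusted p = 0.00286) at 24 months, and stayed negative without the dye correction. Mcrs1 rose at 16 and 24 months (0.73 and 0.63, adjusted p = 0.0291 and 0.0387), and Morf4l1 and Uchl5 fell by 0.38 and 0.37 at 6 months (adjusted p = 0.00653 and 0.0342), all with the same sign without it.

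Of 15 tested HDAC corepressor subunits of 25 listed, 2, 4 and 3 were higher at 6, 16 and 24 months and 2 lower at each age, with medians of 0.16, 0.19 and 0.13. Phf21a, a subunit of the complex with Kdm1a, rose by 0.44, 0.50 and 0.41 (adjusted p = 0.0116, 0.00491 and 0.00835), with 0.09, 0.14 and -0.11 without the dye correction. Sin3b, a corepressor scaffold, rose by 0.45 and 0.50 at 16 and 24 months (adjusted p = 0.0345 and 0.0208), and turned to -0.02 and -0.28. Rcor2 rose by 0.28 at 6 months (adjusted p = 0.0244) and turned to -0.14. Sap18 fell by 0.34 at 6 months (adjusted p = 0.00823), and Sap30, a Sin3 subunit, fell by 0.35 and 0.43 at 16 and 24 months (adjusted p = 0.00569 and 0.00322), with the same sign without the correction.

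Of 6 tested histone acetyltransferases of 11 listed, 1, 2 and 1 were higher at 6, 16 and 24 months and 0 lower, with medians of 0.18, 0.20 and 0.10. Kat7 rose by 0.19, 0.19 and 0.21 (adjusted p = 0.0363, 0.0258 and 0.0174) and Kat5 by 0.27 at 16 months (adjusted p = 0.0177), and both turned negative without the dye correction. Kat7 then passed as lower at 24 months (-0.23, adjusted p = 0.0308, limma). Of 5 tested sirtuins of 7 listed, 0 were higher at any age, and 1 was lower at 24 months. It was Sirt3, a mitochondrial deacetylase, which fell by 0.43 (adjusted p = 0.0221). The sirtuin medians were 0.05, 0.16 and -0.02.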

How the data were processed

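Each of 9 arrays carried 2 samples, one in each dye, in 18 samples grouped by the age in the labels. The members, lists and rules were chosen with earlier results of these data known. The deposited intensity values come from Agilent Feature Extraction, version 7.5.1 per the file headers and 7.1 per the submitters' processing notes. Per the file headers, the processed signals had been background-subtracted, spatially detrended and dye-normalized by LOWESS with a smooth factor of 0.25. The authors' deposited table holds a score for each channel, which was checked to be linear in the log10 of the processed signal (r = 1.0). It serves as an alternative, in score units. The genome build of the arrays is not given in the sources used here.

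Log2 ratios of processed Cy3 over Cy5 signal were averaged over spots of a probe after leaving out spots marked as outliers. Testing needed a signal that the scanner software marked as clear of background, either in Cy3 for the 3 arrays of some age or in Cy5 for all 9, which left 37449 probes. One limma 3.58.1 model in R 4.3.3 with a mean for each age was fitted to all arrays, with 6 residual and 1.94 prior degrees of freedom. P-values are two-sided, with Benjamini-Hochberg adjustment over all tested probes. An age against 1 month tests 3 log ratios against 0. The sample titles give the replicates as numbered samples and say no more, so p-values measure the spread between these samples. Precision is limited by how few arrays there are.

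The text names each gene whose brighter probe passed, the 3 smallest p where none passed, Baz2a and Chd1, genes with probes of opposite sign of which 1 passed, and up to 3 called genes for each partner list. Dimmer probes that passed and members with the widest swings between arrays were added after their values were seen. The alternatives were normexp (offset 50) with loess, median centring with and without loess, the score table, other filters, a replicate block, haemoglobin as a covariate, single arrays left out, fits within an age and a robust spread. Leaving out the arrays with a haemoglobin log2 ratio above 1, and the haemoglobin slope, were added after seeing the data. The fit was tested on simulated data. Same-numbered arrays of different ages correlated between -0.31 and 0.102 in their deviations from the age means, so the numbers were not taken as pairs. Tables were made in Python 3.11.15 with pandas 2.3.3 and numpy 2.4.6, and figures with matplotlib 3.10.9.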

Additional observations from a re-analysis of the deposited data

Results flagged for a closer look

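The 1 month Cy5 channel was on every array, which allows a check of single arrays for the 38 member probes. The check asks whether the highest or lowest of the 9 levels lies apart from the rest by more of their range than Dixon's 95% critical value, and chance marks about 1 in 20 probes. It marked 2. The brighter Chd4 probe had a Cy5 level of -0.84 on 24 month replicate 3, against -1.40 to -1.18 on the other 8 arrays (gap 0.606 of the range, log2 signal relative to the array). The Smarca4 probe had 3.03 on 24 month replicate 2, against 3.37 to 3.64 on the others (gap 0.565 of the range).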

How the results depend on the processing

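No age contrast called a member under any alternative. Leaving out each array in turn gave 0 to 1 calls over all probes in each age contrast and in the test of any difference. Without the dye correction (normexp and median centring, no loess) all-probe calls against 1 month were 19338, 16171 and 26424 at 6, 16 and 24 months, and the member median was 0.11 at 16 months and -0.0093 at 24 months, against 0.12 at 24 months with normexp and loess. Among member probes called with the correction, the sign turned without it at 6 months for Hdac1 (-0.18), Hdac10 (-0.087) and Mta2 (-0.23). At 16 months it turned for Hdac1 (-0.28), Hdac10 (-0.084), Hdac5 (-0.080) and Mta2 (-0.25). At 24 months it turned for Arid5b (-0.16), Hdac1 (-0.60), Hdac11 (0.52), the dimmer Hdac2 probe (0.20) and Hdac7 (-0.057). It also turned at 24 months for Mta1 (-0.28), Mta2 (-0.49), Smarca4 (-0.35) and Smarcd2 (-0.23). Hdac11 turned to 0.15 at 24 against 6 months and 0.23 at 24 against 16 months. The deposited score table called 7, 8 and 12 members at 6, 16 and 24 months, against 14.1%, 20.3% and 28.0% of all probes. With only the arrays of 1 age, 1132, 3534 and 0 probes and 4, 5 and 0 members were called at 6, 16 and 24 months. The replicate block, with numbers that do not pair the samples, called 2424 probes and 6 members at 6 months. With haemoglobin as a covariate, 17, 4923 and 8613 probes and 0, 10 and 14 members were called at 6, 16 and 24 months. The 6 month values are extrapolated there, to a haemoglobin log2 ratio above that of any 6 month array. Baz2a and Chd1 turned to 0.17 and 0.17 at 24 against 6 months. At 16 against 6 months Baz2a, Chd1 and Smarca1 turned to 0.059, 0.13 and 0.11. Without the 3 arrays with a haemoglobin log2 ratio above 1, chosen after seeing the data, the 16 month group is 1 array, assumed to vary like the others, and the 24 month group 2 arrays. Then 2632, 0 and 3651 probes were called at 6, 16 and 24 months and 0 members at 16 months; Smarca1 was at 0.10 at 16 against 6 months and Chd1 at -0.10 at 24 against 16 months. Leaving out 1 array gave 283 to 5407, 1240 to 7728 and 3505 to 8712 calls at 6, 16 and 24 months, 0 to 14, 2 to 14 and 4 to 17 member calls, and member medians of 0.23 to 0.33, 0.22 to 0.27 and 0.20 to 0.24. The member medians between ages then ran from -0.10 to 0.058 at 24 against 6 months, -0.083 to 0.089 at 16 against 6 months and -0.078 to 0.045 at 24 against 16 months. Leaving out 1 array put Baz2a between -0.11 (without 16 month replicate 1) and 0.81 and Chd1 between -0.11 (without the same array) and 0.84 at 24 against 16 months, and Chd1 at 16 months between -0.12 (without 16 month replicate 3) and 0.82. The cause of these changes was not tested. The scan-day block was not run: the file headers used here give the time of image extraction, on 1 day for all arrays, and each array was a slide of its own. The dim probes of Smarcd1, Hdac11 and Smarce1 were limited by their signal over background.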
